A study of Homo sapiens with 24 samples.

Results

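The genes described here are 9 integrin subunits, ITGAV, ITGA2, ITGA3, ITGA5, ITGA6, ITGB1, ITGB3, ITGB5 and ITGB8, and ITGBL1, which encodes an integrin beta-like protein. They are 10 of the 24053 genes in the deposited table. The set was chosen from genes of these same samples, by name and with results of these data known. ITGBL1 was among the genes that an earlier fit called lower with Pink1 siRNA, and it is taken here as chosen for its levels. Its levels and differences are therefore given as a description, with no p, and it is left out of the counts over the integrins. For the integrin subunits the adjusted p of the fit across all genes is given, and a call describes these samples and is not independent support. Each of the 10 genes had a mean of at least 1 TPM and was among the 13810 genes tested.

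RNA was sequenced from ARPE-19, an established line of human retinal pigment epithelium (RPE) cells. The groups were Pink1 siRNA, Nrf2 siRNA, the double siRNA against Nrf2 and Pink1, and a scramble siRNA as the control, each with 3 biological replicates of 2 technical replicates, or 24 libraries. The sample labels call the siRNA groups knockouts while the series design calls them siRNA, and siRNA lowers a message without removing the gene. The labels' protocols describe scratch wounding of near-confluent cells, and whether the cells taken for RNA were wounded is not given in the sources used here. Values are TPM, a transcript abundance per length that sums to a fixed total in every library, so levels can be set side by side between genes. The technical replicates were averaged, which leaves 12 biological samples. Nothing in the labels says whether the biological replicates were separate cultures, so p-values measure only the spread between these samples. The number of reads behind a TPM is unknown.

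PINK1 was at 12.4 to 18.3 TPM with Pink1 siRNA and at 15.3 to 20.5 TPM with the double siRNA, against 53.9 to 57.7 TPM with scramble. NFE2L2, the gene of NRF2, was at 11.1 to 25.0 TPM with Nrf2 siRNA and at 22.2 to 34.35 TPM with the double siRNA, against 74.3 to 89.2 TPM with scramble. The unnamed identifier ENSG00000226958 held 41.4% of the TPM of double siRNA replicate 1 but 15.5% of that of replicate 3 of the same group, and 24.9% to 38.6% in the other samples. The epithelial keratins KRT8 (728 to 1084 TPM) and KRT18 (465 to 866 TPM) were high in every sample. The RPE transcription factors MITF (55.3 to 110 TPM) and OTX2 (47.7 to 93.8 TPM) were also expressed in every sample. Other RPE markers were low: BEST1 at 4.08 to 9.475 TPM, PMEL at 3.03 to 7.14 TPM and RLBP1 at 0.39 to 3.69 TPM. RPE65, the visual cycle isomerase of mature RPE, stayed at or below 0.36 TPM. The epithelial markers E-cadherin (CDH1) and EPCAM stayed at or below 0.795 and 0.305 TPM. PTPRC of leukocytes, VWF of endothelium and PDGFRA of fibroblasts stayed at or below 0.675 TPM, and the fibroblast proteoglycan LUM reached 1.06 TPM in scramble replicate 1. Of 6 leukocyte and platelet markers the table held PTPRC and CD68. CD68, a lysosomal protein of macrophages, was at 42.3 to 104.75 TPM with Nrf2 siRNA, against 19.25 to 37.9 TPM with scramble, and was not called by limma (adjusted p = 0.189). Of 7 RPE markers tested, the melanin enzymes TYR and TYRP1 were called higher than scramble in each siRNA group. TYR was low, at 0.195 to 0.545 TPM with scramble and 2.095 to 4.82 TPM over the siRNA samples. The part of CD68, TYR and TYRP1 in the integrin values was not tested.

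Integrins are receptors made of an alpha and a beta subunit that span the cell membrane, bind matrix proteins outside the cell and connect through talin and kindlin to actin inside it. The alpha V subunit pairs with the beta 1, beta 3, beta 5, beta 6 or beta 8 subunit, and these pairs bind ligands with an RGD motif, among them vitronectin, fibronectin and the latency peptide of TGF-beta. In the retinal pigment epithelium the alpha V beta 5 pair is known for binding shed photoreceptor outer segments before they are engulfed, and beta 1 integrins hold the cells to Bruch's membrane.

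In scramble cells the most abundant members were ITGB1, at a mean of 437 TPM, ITGA3 at 384 TPM and ITGB5 at 201 TPM. The scramble samples of each of these did not overlap those of the next gene down. ITGA5 (91.5 TPM) and ITGAV (90.2 TPM) overlapped, as did ITGBL1 (34.25 TPM) and ITGA6 (32.4 TPM). ITGB8 stood lower at 15.7 TPM, ITGB3 at 3.315 TPM, and ITGA2 was near the lower limit of the test at 1.08 TPM. Measured among all beta subunits in the table, ITGB1 made up 64.6% ± 1.20 of the beta subunit TPM in scramble cells (SD, n = 3), ITGB5 29.7% ± 0.669 and ITGB8 2.32% ± 0.0563.

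**Figure D1:**
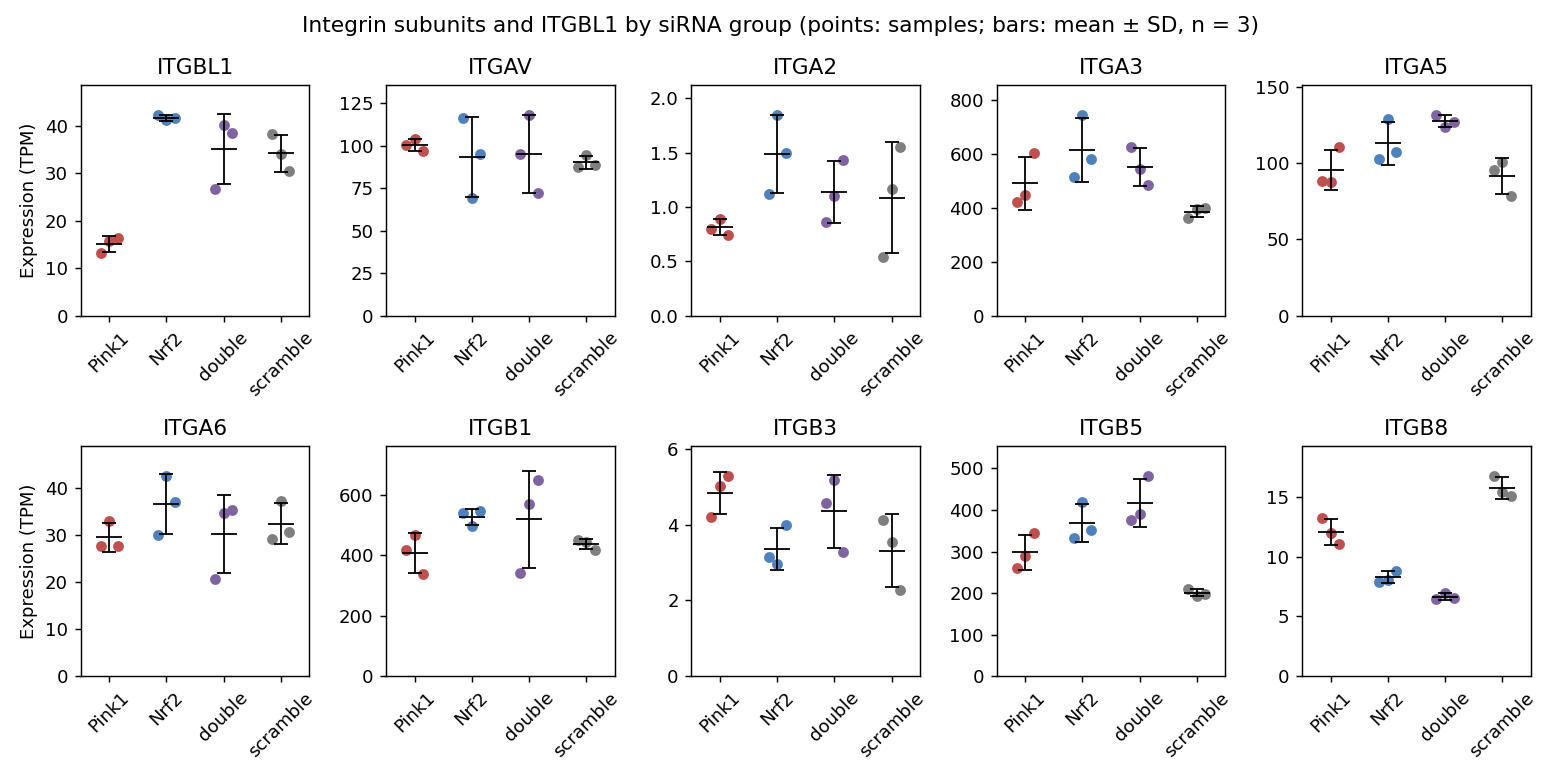
Expression in TPM (vertical axes, each from 0) of the 9 integrin subunits and ITGBL1 in the 3 biological samples (points) of Pink1 siRNA, Nrf2 siRNA, double siRNA and scramble; bars are the mean ± SD. ITGB5 lies higher and ITGB8 lower than scramble in all 3 siRNA groups, and ITGBL1 is low with Pink1 siRNA, at 13.2 to 16.5 TPM.

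The clearest differences among the subunits were in the partners of alpha V. ITGB5, the beta subunit of the outer segment receptor, was higher and ITGB8, the beta subunit that with alpha V activates latent TGF-beta, was lower in all 3 siRNA groups than in scramble, with no overlap between the samples. Both were called with Nrf2 siRNA and with the double siRNA, and neither was called with Pink1 siRNA. A gene is called where limma's Benjamini-Hochberg adjusted p over all genes tested is under 0.05. TPM of bulk cells does not tell fewer cells that express a gene from less RNA of it per cell.

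ITGB5 (ENSG00000082781) was at 261, 288 and 345 TPM in the 3 Pink1 siRNA samples, at 333, 419 and 352 TPM in the Nrf2 siRNA samples and at 376, 390.4 and 482 TPM in the double siRNA samples, against 211, 194 and 198 TPM in the scramble samples. The lowest siRNA sample thus lay above the highest scramble sample, and the scramble samples were the least spread. The mean was 298 ± 42.7 TPM with Pink1 siRNA, 368 ± 45.3 TPM with Nrf2 siRNA and 416 ± 57.5 TPM with the double siRNA, against 201 ± 8.67 TPM with scramble (SD, n = 3 each). The mean was highest with the double siRNA, whose samples overlapped those of Nrf2 siRNA and not those of Pink1 siRNA. The log2 difference of TPM + 1 from scramble was 0.56 with Pink1 siRNA (SE 0.155, adjusted p = 0.155), 0.87 with Nrf2 siRNA (adjusted p = 0.0352) and 1.04 with the double siRNA (adjusted p = 0.0101), all from limma. As a share of the scramble mean, the ITGB5 level was 183% with Nrf2 siRNA and 207% with the double siRNA. The call with Nrf2 siRNA ended when any 1 of the 6 samples compared was left out (adjusted p 0.0668 to 0.163 by limma), and that with the double siRNA was lost when scramble replicate 1, 2 or 3 was left out (adjusted p = 0.0511, 0.077 and 0.0639). The differences themselves kept their size, at 0.77 to 0.93 with Nrf2 siRNA and 0.93 to 1.11 with the double siRNA over the leave-outs.

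ITGB8 (ENSG00000105855) was at 13.2, 11.9 and 11.1 TPM with Pink1 siRNA, at 7.92, 8.07 and 8.84 TPM with Nrf2 siRNA and at 6.48, 6.98 and 6.51 TPM with the double siRNA, against 16.8, 15.4 and 15.0 TPM with scramble. With technical replicates averaged, none of the 4 groups overlapped another, and the order from high to low was scramble, Pink1 siRNA, Nrf2 siRNA and the double siRNA. Single libraries did overlap. A library of Pink1 siRNA replicate 1 was at 14.92 TPM, above a library of scramble replicate 2 at 13.61 TPM. A library of double siRNA replicate 3 was at 7.67 TPM, above a library of Nrf2 siRNA replicate 2 at 6.91 TPM. Libraries of the same sample spread more (log2 SD 0.179) than averaged samples of a group (0.0837). The mean level was 52.6% of scramble with Nrf2 siRNA and 42.3% with the double siRNA. On the log2 scale of TPM + 1 the difference was -0.36 with Pink1 siRNA (SE 0.131, adjusted p = 0.28), -0.85 with Nrf2 siRNA (adjusted p = 0.0226) and -1.13 with the double siRNA (adjusted p = 0.00301), from limma. The call with the double siRNA held in all 6 leave-outs and ended in a fit of these 2 groups by themselves (adjusted p = 0.116), where ITGB5 also lost its call (adjusted p = 0.121). The call with Nrf2 siRNA held in none of the 6 leave-outs (adjusted p 0.0636 to 0.108).

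**Figure D2:**
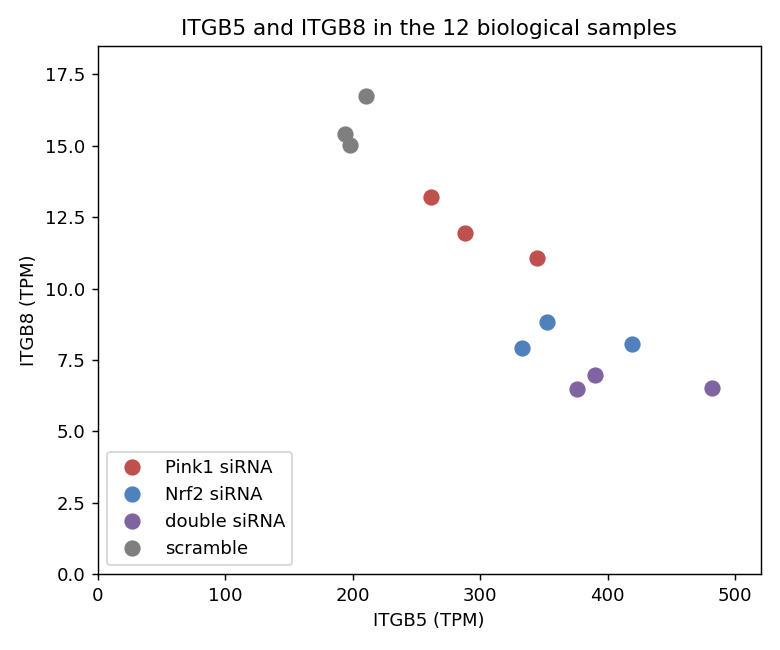
ITGB5 (horizontal axis, TPM) against ITGB8 (vertical axis, TPM) in the 12 biological samples, coloured by siRNA group. Scramble samples lie at the upper left, at 194 to 211 TPM of ITGB5 and 15.0 to 16.8 TPM of ITGB8, and double siRNA samples at the lower right, at 376 to 482 TPM and 6.48 to 6.98 TPM.

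Taken per sample, the ITGB5 level was 19.8, 24.1 and 31.1 times that of ITGB8 with Pink1 siRNA, 42.1, 52.0 and 39.85 times with Nrf2 siRNA and 58.1, 55.9 and 74.1 times with the double siRNA, against 12.6, 12.6 and 13.1 times with scramble. These ratios, taken from averaged technical replicates, did not overlap between any groups. Over the 12 samples, log2 levels of ITGB5 and ITGB8 had Pearson's r of -0.93 and Spearman's rho of -0.87. That is a description of 4 groups in the same libraries, and TPM shares 1 total per library. The level of ITGAV (ENSG00000138448), the alpha subunit that pairs with both, was 100.3, 104 and 96.9 TPM with Pink1 siRNA, 116, 69.0 and 94.7 TPM with Nrf2 siRNA and 94.8, 118 and 72.3 TPM with the double siRNA, against 87.5, 94.6 and 88.6 TPM with scramble. The Pink1 siRNA samples lay above scramble by a narrow margin, and the other groups ran on both sides of it. The log2 differences of ITGAV were 0.15, 0.017 and 0.047 with Pink1, Nrf2 and double siRNA (limma adjusted p = 0.8, 0.987 and 0.948). For the double siRNA, limma's 95% interval of the ITGAV difference from scramble ran from -0.38 to 0.48 on the log2 scale. After ENSG00000226958 was removed and TPM rescaled, the ITGAV difference was -0.00071 with Nrf2 siRNA and -0.056 with the double siRNA, so no direction is given for these.

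The start regions of ITGB5 and ITGB8 are shown because these are the 2 subunits that passed the test, and the factor NRF2, whose message the Nrf2 and double siRNAs lowered, is known to bind the antioxidant response core TGACNNNGC in other promoters. Each window runs from 250 bases before to 50 bases after the RefSeq start, on the gene's own strand (GRCh38.p14). RefSeq's table gave 13 such windows for 8 of the 10 genes, and several starts for some genes; ITGA3 and ITGB3 had none. For ITGB5 the window printed is that nearest to the annotated start of a protein-coding transcript (chr3:124887316-124887615, minus strand). For ITGB8 it is chr7:20330650-20330949 (plus strand).
ITGB5: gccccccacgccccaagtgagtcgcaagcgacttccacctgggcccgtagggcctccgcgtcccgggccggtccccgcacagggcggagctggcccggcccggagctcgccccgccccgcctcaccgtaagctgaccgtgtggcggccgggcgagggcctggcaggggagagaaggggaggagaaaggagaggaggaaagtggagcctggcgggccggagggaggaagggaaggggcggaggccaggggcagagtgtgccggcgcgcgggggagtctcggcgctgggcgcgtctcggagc
ITGB8: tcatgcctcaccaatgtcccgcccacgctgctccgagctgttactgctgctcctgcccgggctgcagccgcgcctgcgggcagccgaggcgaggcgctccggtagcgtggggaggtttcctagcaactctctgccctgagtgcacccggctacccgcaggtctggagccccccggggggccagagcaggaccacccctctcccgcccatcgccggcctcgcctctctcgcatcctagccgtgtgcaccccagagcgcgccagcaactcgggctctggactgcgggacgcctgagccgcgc
Both are rich in G and C, at 75.7% for ITGB5 and 71.7% for ITGB8, against a median of 58.7% over the 35114 windows of all genes. They hold 32 and 28 CpG dinucleotides, where the median window holds 14. Matches to 4 motifs were sought on both strands: the antioxidant response core TGACNNNGC (in 13.3% of all windows), the AP-1 site TGANTCA (7.71%), the hypoxia response core ACGTG (21.4%) and the E-box CACGTG (7.26%), which contains ACGTG. Neither printed window holds a match, so neither has capitals. An ITGB5 window farther upstream (chr3:124901369-124901668, minus strand) holds the antioxidant core at 207 bases before its start, as TGACCAGGC. The start of that window is 14121 bases from the nearest annotated start of a protein-coding transcript, against 68 bases for the printed window. A match is a stretch of letters and not a measured binding site.

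ITGB1 (ENSG00000150093), the beta subunit shared by most integrins of epithelial cells, was at 418, 469 and 337 TPM with Pink1 siRNA, at 539.7, 497 and 547 TPM with Nrf2 siRNA and at 340.35, 569.9 and 648 TPM with the double siRNA, against 451, 443 and 418 TPM with scramble. The Nrf2 siRNA samples lay above all scramble samples, and the double siRNA samples spread on both sides of them. The lowest double siRNA sample, replicate 1, and the highest, replicate 3, are those in which ENSG00000226958 took 41.4% and 15.5% of all TPM; the part of this in the spread was not tested. The log2 difference of ITGB1 from scramble was -0.11 with Pink1 siRNA, 0.27 with Nrf2 siRNA and 0.20 with the double siRNA (limma adjusted p = 0.875, 0.666 and 0.733). Among the beta subunits, ITGB1 made up 53.9% ± 7.27 of beta TPM with Pink1 siRNA, 57.1% ± 3.82 with Nrf2 siRNA and 52.9% ± 6.69 with the double siRNA, against 64.6% ± 1.20 with scramble (SD, n = 3 each). ITGB5 held 39.5% ± 6.09 of beta TPM with Pink1 siRNA, 39.8% ± 4.15 with Nrf2 siRNA and 43.7% ± 5.58 with the double siRNA, against 29.7% ± 0.669 with scramble. The ITGB1 share was lower and the ITGB5 share higher in each siRNA sample than in each scramble sample.

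The window of ITGB1 at chr10:32958181-32958480 (minus strand, GRCh38.p14, RefSeq) was picked because it holds the antioxidant core, printed in capitals 197 bases before the start. Its start is 21 bases from the annotated start of a protein-coding transcript. The other ITGB1 window, at chr10:32935509-32935808, has its start at 0 bases from such a transcript start and holds no such core. For each of the 8 genes with windows, the window nearest a protein-coding transcript start was chosen, and none holds the core (0 of 8). For ITGB1 that rule chose the window at chr10:32935509-32935808, with 40.7% G and C and 4 CpG. The 0 of 8 therefore depends on the rule.
ITGB1: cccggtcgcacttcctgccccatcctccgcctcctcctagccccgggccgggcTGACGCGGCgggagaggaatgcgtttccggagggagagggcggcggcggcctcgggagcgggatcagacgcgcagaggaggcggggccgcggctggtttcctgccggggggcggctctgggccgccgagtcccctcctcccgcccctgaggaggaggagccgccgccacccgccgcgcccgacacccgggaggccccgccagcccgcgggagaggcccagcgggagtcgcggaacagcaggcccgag
It has 78.3% G and C and 39 CpG. The ITGB1 level was called neither with Nrf2 siRNA nor with the double siRNA.

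ITGB3 (ENSG00000259207), the other RGD-binding partner of alpha V among the members and best known from platelets, was low throughout. It was at 4.2, 5.02 and 5.28 TPM with Pink1 siRNA, 3.15, 2.96 and 4 TPM with Nrf2 siRNA and 4.58, 5.18 and 3.29 TPM with the double siRNA, against 4.14, 3.54 and 2.27 TPM with scramble. Pink1 siRNA samples lay just above the scramble range, while the other groups overlapped it. The log2 difference was 0.46 with Pink1 siRNA (limma adjusted p = 0.427), 0.036 with Nrf2 siRNA (adjusted p = 0.974) and 0.32 with the double siRNA (adjusted p = 0.549). Technical replicates of ITGB3 had an SD of 0.265 on the log2 scale between single libraries, so its values are among the least precise here. The SD between biological samples was 0.244, taken after technical replicates were averaged, so the 2 are not like measures.

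Of the alpha subunits among the 9 integrins, none was called against scramble with any siRNA. ITGA3 (ENSG00000005884), which pairs with beta 1 to bind laminins, was at 421, 446 and 601 TPM with Pink1 siRNA, 513, 743 and 579.7 TPM with Nrf2 siRNA and 623, 541 and 482 TPM with the double siRNA, against 360.3, 396 and 397 TPM with scramble. All 9 siRNA samples lay above the 3 scramble samples. The log2 difference was 0.33 with Pink1 siRNA (limma adjusted p = 0.492), 0.65 with Nrf2 siRNA (adjusted p = 0.152) and 0.51 with the double siRNA (adjusted p = 0.225). ITGA3 made up 60.2% ± 3.14 of alpha subunit TPM with Pink1 siRNA, 64.9% ± 4.84 with Nrf2 siRNA and 61.1% ± 3.45 with the double siRNA, against 55.5% ± 2.30 with scramble (SD, n = 3 each).

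ITGA5 (ENSG00000161638), the alpha subunit of the classical fibronectin receptor, was at 88.2, 87.4 and 111 TPM with Pink1 siRNA, 102, 129 and 107 TPM with Nrf2 siRNA and 131.5, 124 and 127 TPM with the double siRNA, against 95.3, 101 and 78.2 TPM with scramble. Nrf2 siRNA and double siRNA samples lay above scramble without overlap, and Pink1 siRNA samples were mixed with it. The log2 difference was 0.060 with Pink1 siRNA, 0.30 with Nrf2 siRNA and 0.48 with the double siRNA (limma adjusted p = 0.912, 0.461 and 0.168). With Pink1 siRNA it turned to -0.013 after ENSG00000226958 was removed. Across the 12 samples ITGA5 and ITGA3 levels followed ITGB5, with r of 0.82 (rho 0.85) for ITGA5 and ITGB5 and 0.80 (rho 0.78) for ITGA3 and ITGB5, and both ran against ITGB8 (r -0.82 for ITGA5 and -0.75 for ITGA3). These are descriptions over samples of 4 groups that share a total per library.

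ITGA6 (ENSG00000091409), another laminin-binding subunit that pairs with beta 1 or beta 4, ranged from 27.7 to 33.1 TPM with Pink1 siRNA, 30.0 to 42.7 TPM with Nrf2 siRNA and 20.7 to 35.4 TPM with the double siRNA, against 29.2 to 37.4 TPM with scramble. Each group overlapped scramble, and the log2 differences were -0.13, 0.16 and -0.13 (limma adjusted p = 0.849, 0.812 and 0.837). Its lowest sample was double siRNA replicate 1, which was also the lowest double siRNA sample of ITGB1. The lowest ITGB1 sample of all groups was Pink1 siRNA replicate 3, at 337 TPM. ITGA6 and ITGB1 had r of 0.68 (rho 0.62) over the 12 samples. ITGA2 (ENSG00000164171), the collagen-binding subunit, ranged from 0.745 to 0.89 TPM with Pink1 siRNA, 1.12 to 1.85 TPM with Nrf2 siRNA and 0.865 to 1.44 TPM with the double siRNA, against 0.535 to 1.55 TPM with scramble. At these levels no difference was detectable: the log2 differences of TPM + 1 were -0.17, 0.28 and 0.057 (limma adjusted p = 0.856, 0.765 and 0.958).

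**Figure D3:**
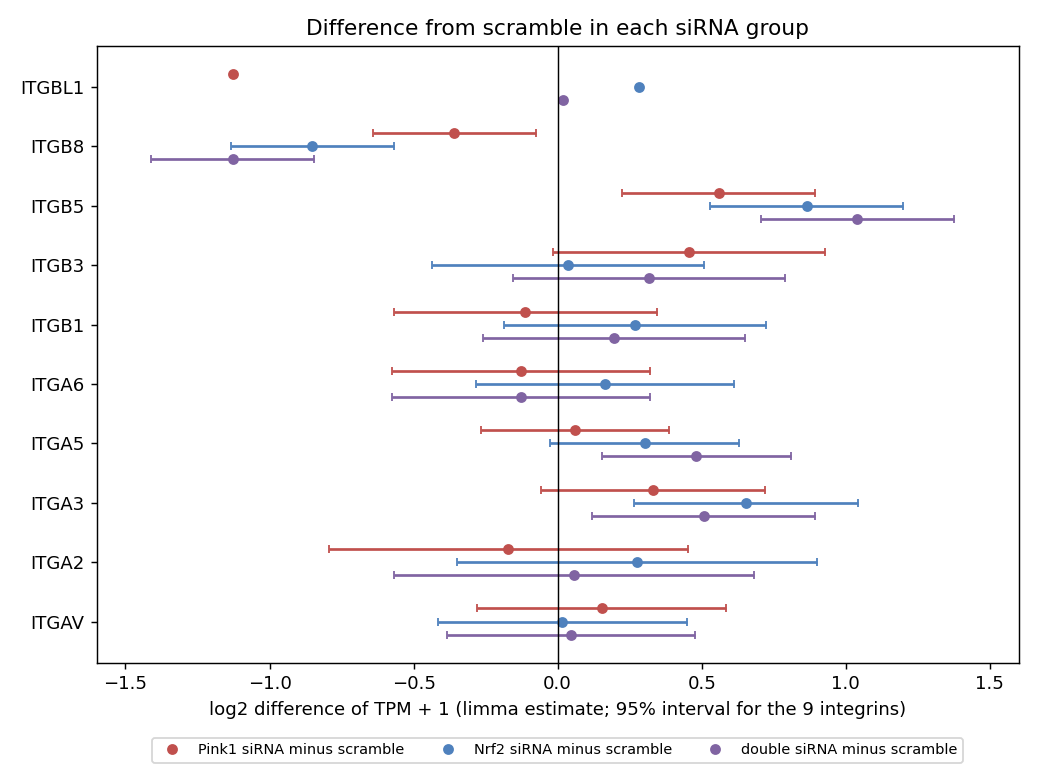
Difference of log2(TPM + 1) from scramble (horizontal axis) for each gene (rows) with Pink1, Nrf2 and double siRNA; points are limma estimates and bars 95% intervals not adjusted over genes, drawn for the 9 integrins and left out for ITGBL1. ITGB5 lies to the right of 0 and ITGB8 to the left with every siRNA, farthest with the double siRNA at 1.04 and -1.13.

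ITGBL1 (ENSG00000198542) encodes a secreted protein with EGF-like repeats resembling those of integrin beta subunits and without their membrane-spanning part. It was at 13.2, 15.7 and 16.5 TPM with Pink1 siRNA, 42.3, 41.2 and 41.6 TPM with Nrf2 siRNA and 26.8, 40.2 and 38.5 TPM with the double siRNA, against 38.2, 34.0 and 30.5 TPM with scramble. The Pink1 siRNA samples stood alone below all others, the Nrf2 siRNA samples lay above all others, and the double siRNA samples spread around scramble. The lowest double siRNA sample was again replicate 1. The mean was 15.1 ± 1.68 TPM with Pink1 siRNA, 44.2% of scramble, 41.7 ± 0.562 TPM with Nrf2 siRNA and 35.1 ± 7.29 TPM with the double siRNA, against 34.25 ± 3.87 TPM with scramble (SD, n = 3 each). The log2 difference from scramble was -1.13 with Pink1 siRNA, 0.28 with Nrf2 siRNA and 0.02 with the double siRNA (SE 0.166 each). It was between -0.96 and -1.23 with Pink1 siRNA over the settings tried. The double siRNA level was 232% of the Pink1 siRNA level. PINK1 was low in both groups, and its part in the ITGBL1 levels was not tested. The double siRNA difference from scramble turned to -0.083 after ENSG00000226958 was removed.

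The ITGBL1 window (chr13:101452425-101452724, plus strand, GRCh38.p14, RefSeq) is shown beside those of ITGB5 and ITGB8 because its base composition differs from theirs.
ITGBL1: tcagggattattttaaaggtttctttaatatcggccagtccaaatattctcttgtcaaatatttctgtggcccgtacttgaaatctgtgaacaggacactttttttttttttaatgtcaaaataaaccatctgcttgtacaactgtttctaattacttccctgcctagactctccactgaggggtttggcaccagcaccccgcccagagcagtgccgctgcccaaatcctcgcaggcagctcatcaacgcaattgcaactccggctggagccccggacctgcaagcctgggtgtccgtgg
It has 47.7% G and C and 9 CpG, below the median window on both counts, and holds none of the 4 motifs.

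The 5 genes whose log2 levels followed ITGBL1 most closely over the 12 samples, among 9806 genes that averaged 5 TPM or more, were VOPP1 (r 0.924), ELK3 (r 0.924), ZC4H2 (r 0.923), CTSO (r 0.915) and SLC31A1 (r 0.912). ELK3, an ETS family transcription factor, was at 17.5 ± 1.47 TPM with Pink1 siRNA, 33.5 ± 1.58 TPM with Nrf2 siRNA and 25.7 ± 6.22 TPM with the double siRNA, against 31.1 ± 0.887 TPM with scramble (SD, n = 3 each). CTSO, a cysteine cathepsin, was at 5.43 ± 0.0625 TPM with Pink1 siRNA, 14.3 ± 1.21 TPM with Nrf2 siRNA and 8.97 ± 1.45 TPM with the double siRNA, against 12.3 ± 0.127 TPM with scramble. In CTSO the double siRNA samples lay between Pink1 siRNA and scramble without overlap, unlike in ITGBL1, where they overlapped scramble. SLC31A1, a copper importer, was at 11.7 ± 0.154 TPM with Pink1 siRNA and 15.6 ± 0.945 TPM with scramble, a smaller gap than that of ITGBL1.

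**Figure D4:**
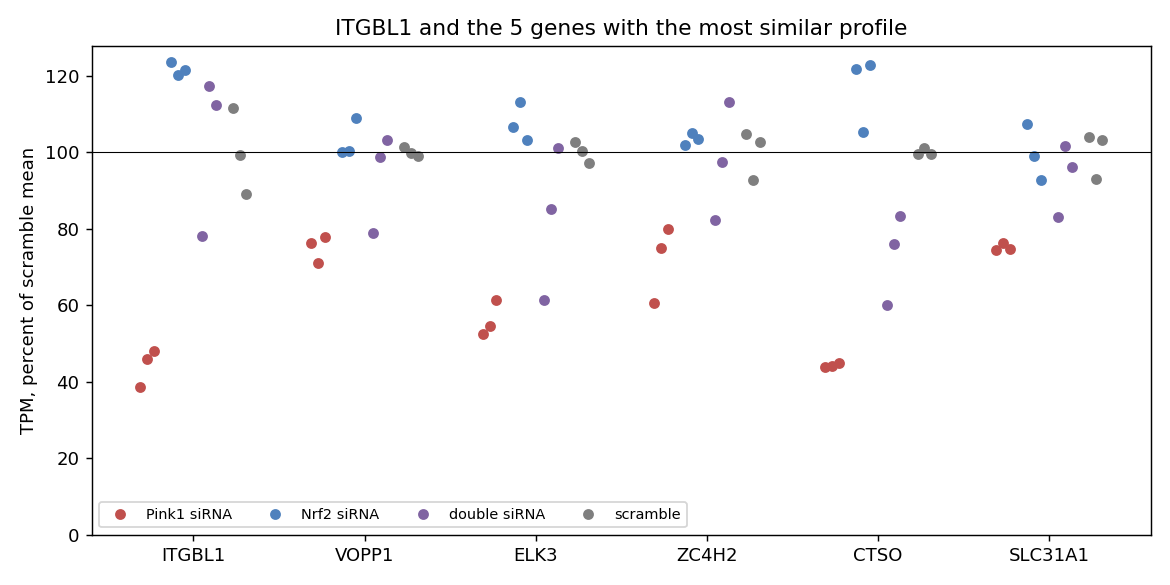
Level of ITGBL1 and of the 5 genes with the most similar profile, in percent of each gene's scramble mean (vertical axis, from 0), in the 3 samples of Pink1 siRNA, Nrf2 siRNA, double siRNA and scramble. Pink1 siRNA samples are the lowest for ITGBL1 (mean 44.2%); the genes were picked for this likeness from the same samples.

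Counted over the 9 integrins, without ITGBL1, Pink1 siRNA gave 0 calls against scramble by limma, where 0.471% of all genes tested were called. At an unadjusted p under 0.05 there were 2 of the 9, ITGB5 and ITGB8, against 12.2% of all genes. The median log2 difference of the 9 was 0.060, against 0.022 over all genes. Pink1 siRNA and scramble samples did not overlap in 5 of the 9, ITGAV, ITGA3, ITGB3, ITGB5 and ITGB8, against 25.0% of all genes. Nrf2 siRNA gave 2 calls of 9, ITGB5 higher and ITGB8 lower, against 0.333% of all genes. The median was 0.27 against 0.016 over all genes, 8 of the 9 differences were above 0, and the groups were apart in 5, against 22.9% of all genes. The double siRNA gave 2 calls of 9, also ITGB5 and ITGB8, against 0.753% of all genes, with a median of 0.20 against 0.0059. Its samples were apart from scramble in 4 of the 9, against 18.1% of all genes. These comparisons share the scramble samples, and the 9 integrins were set together with results of these samples known.

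The siRNA groups were also set against each other to ask whether the double siRNA differed from each siRNA alone. Against Pink1 siRNA, the double siRNA gave 0 calls among the 9 integrins by limma, where 0.0434% of all genes were called, and 3 at an unadjusted p under 0.05, against 5.80% of all genes. The groups were apart in 3 of the 9, against 8.86% of all genes. Among the subunits, ITGB8 was lower with the double siRNA than with Pink1 siRNA by a log2 difference of -0.77 (SE 0.131, limma adjusted p = 0.0856), ITGB5 had a difference of 0.48 (adjusted p = 0.539) and ITGA5 one of 0.42 (adjusted p = 0.662), none called and each without overlap between the samples. Against Nrf2 siRNA, the double siRNA gave 0 calls of 9 by limma, where 0.0145% of all genes were called. It gave 0 of 9 at an unadjusted p under 0.05, against 6.95% of all genes. The samples were apart in 1 of the 9, ITGB8, against 9.49% of all genes. For ITGB8 the interval of that log2 difference ran from -0.56 to 0.0075 (estimate -0.28, adjusted p = 0.721), and for ITGB5 from -0.16 to 0.51 (estimate 0.18, adjusted p = 0.875).

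Between the single siRNAs, Pink1 siRNA against Nrf2 siRNA gave 0 calls of 9 by limma, where 0.992% of all genes were called, and 1 at an unadjusted p under 0.05, ITGB8, against 11.2% of all genes. The samples were apart in 4 of the 9, ITGA2, ITGB1, ITGB3 and ITGB8, against 18.8% of all genes. ITGB8 was higher with Pink1 siRNA than with Nrf2 siRNA by 0.49 (limma adjusted p = 0.106) and ITGB5 had a difference of -0.31 (adjusted p = 0.499), neither called. The interaction, which takes from the log2 level of the double siRNA those of Pink1 siRNA and Nrf2 siRNA and adds that of scramble, asks whether the 2 siRNAs together differ from the sum of each alone. It gave 0 calls of 9, and 0% of all genes were called by limma, with 753 genes and 0 of the 9 at an unadjusted p under 0.05. Its estimate was 0.082 for ITGB8 (SE 0.185, adjusted p = 0.967) and -0.38 for ITGB5 (SE 0.219, adjusted p = 0.903). For ITGB8 the interval ran from -0.32 to 0.48.

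Of the 17 other human integrin subunits, 11 were in the table and 6 had a mean of at least 1 TPM; ITGA8, ITGA9, ITGAD, ITGAL, ITGAM and ITGB2 were not analysed here. None of the 6 was called against scramble by limma with Pink1, Nrf2 or double siRNA, and 3, 1 and 1 had an unadjusted p under 0.05. Over all genes tested, 12.2%, 12.2% and 14.2% had such a p in these comparisons. ITGB4, the hemidesmosome partner of alpha 6, was at 27.5, 27.9 and 42.6 TPM with Pink1 siRNA, against 19.0, 16.4 and 24.9 TPM with scramble (log2 difference 0.67, adjusted p = 0.227). ITGA4, a fibronectin and VCAM1 receptor subunit, had differences of 0.55, 0.40 and 0.64 with Pink1, Nrf2 and double siRNA (adjusted p = 0.36, 0.545 and 0.243). ITGA1 and ITGA11, which bind collagens, differed by 0.55 and -0.12 with Pink1 siRNA (adjusted p = 0.334 and 0.895). ITGA7, a laminin receptor subunit, had differences of -0.31 with Pink1 siRNA (adjusted p = 0.459) and -0.26 with the double siRNA (adjusted p = 0.49), with samples below scramble without overlap in both. ITGAE, known from lymphocytes of epithelia, had one of -0.57 with Nrf2 siRNA (limma adjusted p = 0.355). Samples did not overlap scramble for ITGA4, ITGA7, ITGAE and ITGB4 with Pink1 siRNA. The same held for ITGAE with Nrf2 siRNA, and for ITGA4 and ITGA7 with the double siRNA. These were 4, 1 and 2 of the 6, against 25.0%, 22.9% and 18.1% of all genes. The subunits ITGA2B, ITGA10, ITGAX, ITGB6 and ITGB7 stayed below a mean of 1 TPM. ITGB6, the other TGF-beta activating partner of alpha V, was listed at 0 in 5 of the 12 samples and reached 1.095 TPM in Nrf2 siRNA replicate 1.

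Among 30 genes of matrix ligands, 22 were tested, and those called were all higher than scramble: 2 with Pink1 siRNA, 1 with Nrf2 siRNA and 5 with the double siRNA. Of all genes tested 0.471%, 0.333% and 0.753% were called in these comparisons, and 75.4%, 65.2% and 62.5% of those calls were higher. The median log2 difference of the 22 was 0.25, 0.45 and 0.51 in these groups, against 0.022, 0.016 and 0.0059 over all genes. COL6A1, a collagen VI chain, was at 17.3, 18.1 and 26.2 TPM with Pink1 siRNA and 18.3, 17.95 and 16.65 TPM with the double siRNA, against 8.28, 8.83 and 9.30 TPM with scramble. Its scramble samples lay below all siRNA samples, and the log2 difference was 1.11 with Pink1 siRNA (limma adjusted p = 0.00872) and 0.93 with the double siRNA (adjusted p = 0.0223). FBLN5, an elastic fibre protein with an RGD motif that binds alpha V beta 5, was higher by 1.14 with Pink1 siRNA (adjusted p = 0.0185) and by 1.14 with the double siRNA (adjusted p = 0.0169). MFGE8, the RGD protein that bridges outer segments to alpha V beta 5, was at 84.0, 105 and 116 TPM with the double siRNA, against 54.4, 49.0 and 59.8 TPM with scramble (log2 difference 0.88, adjusted p = 0.0192). The other calls were THBS1 with Nrf2 siRNA (0.75) and with the double siRNA (0.72), and FN1 with the double siRNA (1.17); they are named because they complete the count. FN1, the gene of fibronectin, was at 688, 722 and 1234 TPM with the double siRNA, against 364, 396 and 374 TPM with scramble, and its highest sample was double siRNA replicate 3. Each of these calls was lost when some of the samples were left out. Of 6 fits that each left out 1 of the samples compared, COL6A1 was called in 3 with Pink1 siRNA and 2 with the double siRNA, and FBLN5 in 1 and 3. MFGE8 was called in 2 such fits and FN1 in 1 with the double siRNA, and THBS1 in 0 with Nrf2 siRNA (limma adjusted p 0.0818 to 0.161) and 1 with the double siRNA. Without double siRNA replicate 3, the count of ligands called with the double siRNA was 3 (COL6A1, FBLN5 and MFGE8) and their list median 0.42; without replicate 1 it was 7 and the median 0.67.

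Genes that connect integrins to the inside of the cell gave no call against scramble. Of 26 talin, kindlin and plaque genes tested, none was called by limma with Pink1, Nrf2 or double siRNA; 2, 7 and 9 had an unadjusted p under 0.05, and the median differences were 0.12, 0.14 and 0.18. Over all genes 12.2%, 12.2% and 14.2% had such a p and the medians were 0.022, 0.016 and 0.0059, which also apply to the lists that follow. ACTN1, an actin crosslinker of adhesions, was at 771, 763 and 822 TPM with the double siRNA, against 545, 491 and 448 TPM with scramble (log2 difference 0.67, adjusted p = 0.0546). ILK, the integrin-linked pseudokinase, had a difference of 0.49 with the double siRNA (adjusted p = 0.171). Of the 7 genes of latent TGF-beta tested, none was called, with 3, 0 and 2 at an unadjusted p under 0.05 and medians of 0.30, 0.23 and 0.36. LTBP1 and LTBP4, which bind latent TGF-beta as LTBP3 does, are named after their values were seen. With Pink1 siRNA LTBP1 was at 15.0, 26.9 and 24.8 TPM, against 12.6, 7.40 and 6.2 TPM with scramble (log2 difference 1.27, limma adjusted p = 0.0547), and LTBP4 at 33.9, 42.8 and 47.9 TPM, against 19.4, 23.7 and 18.9 TPM with scramble (0.97, adjusted p = 0.0643). The groups did not overlap in either gene, and neither was called. LTBP3 had a difference of 0.60 with the double siRNA (adjusted p = 0.112), and the ligand TGFB2 one of 0.23 (adjusted p = 0.605). None of the 13 membrane partners was called, with 3, 4 and 2 at an unadjusted p under 0.05; the tetraspanins CD63 and CD151 had differences of 0.28 and 0.56 with the double siRNA (adjusted p = 0.572 and 0.119). None of the 11 trafficking genes tested was called, with 1, 2 and 2 at an unadjusted p under 0.05, and the recycling genes RAB11A and SNX17 differed by 0.013 and 0.11 with the double siRNA (adjusted p = 0.991 and 0.81).

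**Figure D5:**
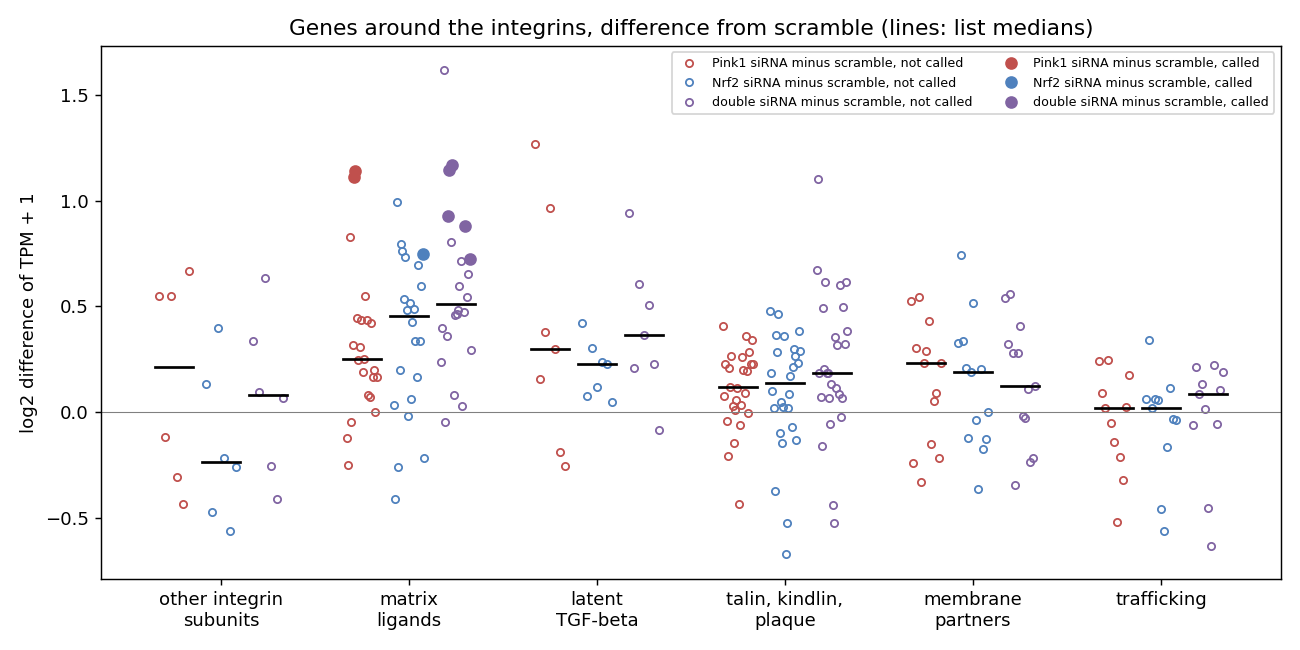
Difference of log2(TPM + 1) from scramble (vertical axis) of each tested gene in 6 lists of genes around the integrins, with Pink1, Nrf2 and double siRNA; filled points are called, open points are not, and black lines are list medians. Called genes appear among the matrix ligands, where the medians are 0.25, 0.45 and 0.51.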

How the data were processed

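RNA from ARPE-19 cells was made into stranded mRNA libraries read as pairs, per the labels' protocols. STAR, RSEM and edgeR and the builds GRCh37 and hg19 are named in the submitters' processing notes; their versions and roles are not stated there. TPM of 24053 genes were computed and deposited by the authors, each column summing to 999678 to 999945; 0 columns were left out. TPM keeps no read number, so no interval that needs depth is given. Symbols came from the gene name table, which held 22789 of the identifiers and a symbol for 19325.

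Technical replicates were averaged, values put on the log2(TPM + 1) scale, and the 13810 genes averaging 1 TPM or more tested in a limma model (3.58.1, R 4.3.3) of the 4 groups with an intensity trend, 8 residual and 4.93 prior degrees of freedom, two-sided, with Benjamini-Hochberg adjustment over all genes. Differences of TPM + 1 understate changes of low genes. With 3 samples against 3, a permutation test of a gene cannot go below p = 0.1. The script was tested on simulated data.

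Members and lists were chosen with earlier results of these data known. All 10 members, PINK1 and NFE2L2 are named; from each list, other subunits with a mean of at least 1 TPM, otherwise up to 3 called genes with the smallest adjusted p, or the 2 most abundant where none was called. The 5 genes most like ITGBL1 were those with the highest Pearson r. Other genes were named after their values were seen. Alternatives were no filter or a 5 TPM minimum, pseudocounts of 0.1 and 5, rescaling by median of ratios, a block for the replicate number, either technical replicate by itself, the compared groups alone, each sample left out and, chosen after seeing the data, removal of ENSG00000226958. Promoter windows came from RefSeq (GRCh38.p14), which is not the build named for the files.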

Additional observations from a re-analysis of the deposited data

How the results depend on the processing

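Of 1156 differences of members under alternatives, 1064 kept direction and side of the threshold, 36 lost their call, and 56, none of them called, changed sign. These counts include ITGBL1, from which nothing is read, and most of the differences had no call to lose. Among the integrins only ITGB5 and ITGB8 with Nrf2 or double siRNA had one. ITGB5 stayed called with Nrf2 siRNA in 0 of 6 leave-outs and 5 of 10 other settings. For ITGB8 these were 0 of 6 and 8 of 10. With the double siRNA they were 3 of 6 and 9 of 10 for ITGB5, and 6 of 6 and 9 of 10 for ITGB8. ITGB5 with Nrf2 siRNA lost its call with no filter (limma adjusted p = 0.0529) and with the replicate block (0.0512). It also lost the call with technical replicate 1 or 2 alone (0.0506 and 0.0572). ITGB8 with Nrf2 siRNA lost its call with technical replicate 2 alone (0.123). In a fit of the compared groups alone, adjusted p was 0.0628 for ITGB5 and 0.0648 for ITGB8 with Nrf2 siRNA. The causes of these lost calls were not tested. The groups-alone and leave-out fits also had fewer samples.

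Members called, of 10, include ITGBL1, the 1 gene called in comparisons with Pink1 siRNA, from which nothing is read. They were 0 to 1 over the leave-outs with Pink1 siRNA, 0 to 0 with Nrf2 siRNA, 1 to 2 with the double siRNA and 0 to 1 for double against Pink1 siRNA. With Pink1 siRNA (1 called) it was 0 with technical replicate 1 alone. With Nrf2 siRNA (2 called) it was 1 with no filter, the replicate block or technical replicate 1 alone, and 0 with the compared groups alone or technical replicate 2 alone. With the double siRNA (2 called) it was 0 with the compared groups alone, and for double against Pink1 siRNA (1 called) it was 0 with the replicate block, the compared groups alone or technical replicate 1 alone.

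Genes called with Pink1 siRNA (65) became 40 with no filter, the replicate block or technical replicate 1 alone, 34 with technical replicate 2 alone, 171 after median-of-ratios rescaling and 172 with ENSG00000226958 removed; leave-outs gave 18 to 41. With Nrf2 siRNA (46) they became 148 after rescaling, 131 with the identifier removed, 30 with the replicate block, 8 with the compared groups alone and 21 with technical replicate 1 alone; leave-outs gave 6 to 22. With the double siRNA (104) they became 64 with no filter, 335 after rescaling, 304 with the identifier removed, 6 with the compared groups alone and 48 with technical replicate 2 alone; leave-outs gave 16 to 229. For double against Pink1 siRNA (6) they became 13 after rescaling, 22 with the identifier removed, 1 with the replicate block or technical replicate 1 alone, and 0 with the compared groups alone; leave-outs gave 1 to 19. For double against Nrf2 siRNA (2) they became 1 with technical replicate 1 alone, 0 with technical replicate 2 alone or the compared groups alone; leave-outs gave 0 to 4. For Pink1 against Nrf2 siRNA (137) they became 79 with no filter, 296 after rescaling, 311 with the identifier removed, 5 with the compared groups alone and 76 with technical replicate 2 alone; leave-outs gave 19 to 151. For the interaction (0) they became 3 with a minimum of 5 TPM and 2 after rescaling or with the identifier removed; leave-outs gave 0 to 3.

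Of the genes called with Pink1 siRNA, 75.4% were higher, against 62.6% after rescaling and 51.2% with the identifier removed. With the double siRNA 62.5% were higher, against 63.3% after rescaling and 42.4% with the identifier removed. Deviations from the group means had correlations of -0.085 to 0.113 over 18 pairs of same-numbered samples, 1 of them over 0.1. Pairs with different numbers had -0.131 to 0.173, and 6 of 12 samples correlated best with their own number. These values do not settle whether the numbers pair the samples. The main fit used no pairing, and the replicate block is given as an alternative. Depth is unknown, and ITGA2 and ITGB3 are the members at the lowest levels.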

Other observations

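The SD between technical replicates on the log2 scale differed widely among the 10 genes. It was 0.027 for ITGB1, 0.048 for ITGA3 and 0.064 for ITGB5, against an SD between biological samples of a group of 0.277, 0.218 and 0.167 for these genes. For ITGB8 the technical SD was the larger, at 0.179 against 0.0837 between biological samples. For ITGAV they were 0.234 and 0.259. The technical SD is between single libraries and the biological SD between averages of 2 libraries, so the 2 do not compare directly. The widest technical gap among the members was 0.784 on the log2 scale, in ITGB3. Summed over all alpha subunits in the table, the level was 809 ± 119 TPM with Pink1 siRNA, 938 ± 110 TPM with Nrf2 siRNA and 897 ± 74.5 TPM with the double siRNA, against 693 ± 23.2 TPM with scramble (SD, n = 3 each). Summed over all beta subunits, it was 756 ± 40.7 TPM with Pink1 siRNA, 925 ± 21.1 TPM with Nrf2 siRNA and 968 ± 205 TPM with the double siRNA, against 677 ± 22.6 TPM with scramble. These sums were looked at after the values of the members were seen and were not tested.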
